A study of Homo sapiens with 32 samples.

Results

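Transcripts of 10 genes known as targets of the PAX3-FOXO1 fusion protein were followed by RNA-seq in RH4, a human cell line established from an alveolar rhabdomyosarcoma, after exposure to compounds aimed at CBP and p300. The genes, FGFR4, ALK, NOS1, TFAP2B, CNR1, POU4F1, PIPOX, JARID2, ABAT and ASS1, were taken by symbol from the 18980 coding genes listed for each library, and all 10 were found and tested. Cells were given JQAD, A485, IHK-44 or dCBP for 2 h or 6 h at a dose of 100 nM or of 1000 nM, in 16 of the 20 libraries. The other libraries were DMSO, the solvent, and NT, a condition whose name the labels leave unexplained, at each time. The series describes the compounds as inhibitors or degraders without saying which is which. All groups were the same cell line and the labels name no genetic change in any of them, so the controls carry the fusion gene too. The 11 ChIP-seq samples and the 1 ChRO-seq sample were not analysed here.

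PAX3-FOXO1 is the transcription factor made by the chromosomal translocation that defines this tumour type. It joins the DNA-binding domains of PAX3, a regulator of muscle precursors, to the activation domain of FOXO1, and it is known to occupy distal enhancers together with muscle regulators. CBP and p300 are the related acetyltransferases that are recruited to enhancers and acetylate histones there, so genes served by such enhancers are commonly used as readouts of compounds against them.

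To show start sites of these genes, the 250 bases before an annotated start are given for 3 of the 4 genes with the largest falls (TFAP2B, PIPOX and POU4F1, each with 1 listed start) and for FGFR4, whose level changed least among the genes that passed the test with all of A485, dCBP and IHK-44 at 6 h. Sequences are from RefSeq on GRCh38.p14, read 5′ to 3′ on the strand of the gene, with each CG dinucleotide in capitals. The windows are TFAP2B chr6:50818621-50818870 (plus strand), PIPOX chr17:29042891-29043140 (plus), POU4F1 chr13:78603553-78603802 (minus) and the upstream FGFR4 start chr5:177086665-177086914 (plus).
TFAP2B: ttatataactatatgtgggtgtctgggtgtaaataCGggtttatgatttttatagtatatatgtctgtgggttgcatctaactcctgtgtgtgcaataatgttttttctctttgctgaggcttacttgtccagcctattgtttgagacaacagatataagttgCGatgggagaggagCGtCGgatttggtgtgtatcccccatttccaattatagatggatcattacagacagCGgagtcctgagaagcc
PIPOX: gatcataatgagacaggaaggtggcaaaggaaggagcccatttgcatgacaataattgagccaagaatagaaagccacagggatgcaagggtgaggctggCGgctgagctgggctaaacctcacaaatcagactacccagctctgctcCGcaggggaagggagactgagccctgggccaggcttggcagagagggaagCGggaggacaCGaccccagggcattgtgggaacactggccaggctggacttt
POU4F1: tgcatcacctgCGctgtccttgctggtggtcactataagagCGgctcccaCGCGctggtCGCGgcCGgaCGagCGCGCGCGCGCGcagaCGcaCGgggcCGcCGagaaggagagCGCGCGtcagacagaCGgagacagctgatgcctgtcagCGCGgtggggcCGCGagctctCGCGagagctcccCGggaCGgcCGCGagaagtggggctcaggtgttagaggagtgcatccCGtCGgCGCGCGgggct
FGFR4: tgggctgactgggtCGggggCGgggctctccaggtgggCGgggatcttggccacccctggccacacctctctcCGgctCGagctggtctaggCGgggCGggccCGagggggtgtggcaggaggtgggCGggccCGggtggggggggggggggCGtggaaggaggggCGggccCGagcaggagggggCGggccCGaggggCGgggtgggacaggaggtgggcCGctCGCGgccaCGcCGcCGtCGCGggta
The TFAP2B window lies inside the annotated span of the gene, which begins at 50818355, and the bases before that position were not examined. The PIPOX, POU4F1 and FGFR4 windows shown directly abut the spans of their genes, so TFAP2B is not matched to them in position. The TFAP2B window held 5 CG dinucleotides and the PIPOX window 4, against 37 for POU4F1 and 24 for FGFR4. Over the 14756 windows of the same length listed for 9988 of the genes with a mean of at least 1 CPM (counts relative to the library's total over the coding genes), the median was 20, with quartiles of 12 and 28. JARID2, the other of the 4, has starts with 22 and 34, and FGFR4 has a second listed start, chr5:177089300-177089549, with 2. The letters ATTA, the core that homeodomains such as that of PAX3 bind, were counted on either strand. Of all windows, 34.4% held these letters. They occurred 3 times in the TFAP2B window, 2 times in the PIPOX window and 0 times in those of POU4F1 and FGFR4. G and C made up 40.8%, 56.8%, 71.2% and 79.6% of these windows in that order, with a median of 64.8% over all windows. The part of base composition was not tested. The letters GTCAC, counted likewise, occurred 1 time before POU4F1 and 0 times in the other windows shown, against 36.7% of all windows. The hexamer CAGCTG, an E-box read by MYOD1 and MYOG and the same on both strands, occurred 1 time before POU4F1 and 0 times in the other windows shown, against 13.1% of all windows. All 10 genes matched the promoter table, with 22 starts in all, and which of them RH4 cells use is not known from these libraries.

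Each condition had 1 library, with between 13466631 and 16799327 expected counts over the coding genes. Tests therefore used other libraries in place of replicates, and the p-values measure only the spread between these libraries. At a given time, the 2 doses of a compound formed 1 group and DMSO and NT formed the control group, so that the differences between doses count as spread. All comparisons at a time share the same 2 control libraries. The 6 rhabdomyosarcoma markers examined (DES, MYOD1, MYOG, CHRNA1, CHRND and CHRNG) were all expressed, with a summed level of 792 to 2234 CPM, whereas the sums of leukocyte, epithelial, endothelial and adipocyte markers reached at most 0.856, 0.147, 1.08 and 0.132 CPM. The rhabdomyosarcoma markers moved with the genes described here. At 6 h, 6 of 6 were lower with dCBP (median -0.78 on the log2 scale) and 6 of 6 with IHK-44 (median -0.77). With A485 it was 3 of 6 (median -0.51) and with JQAD 0 of 6, and at 2 h 0 of 6 with any compound. Over all genes 22.4%, 21.4%, 8.7% and 0% were lower at 6 h with dCBP, IHK-44, A485 and JQAD. MYOD1 and MYOG are also in the list of fusion-linked genes given below. The part of these markers in the results was not tested. Coding genes took 39.3% to 44.5% of the TPM (an abundance scaled by transcript length, over all that the authors quantified) in the controls, 43.0% to 53.9% with A485, 27.9% to 35.4% with dCBP, 31.2% to 34.6% with IHK-44 and 37.9% to 45.5% with JQAD. This share moved with the compound, and its part in the results was not tested. The CPM, the TPM and the fitted changes are all relative to the other RNA of the same library. A change in total RNA, from fewer cells or from less RNA per cell, cannot be seen in them.

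In the controls the genes spanned a wide range of abundance. On the length-scaled TPM, ASS1 was highest at a mean of 294 and FGFR4 next at 270, above 99.0% and 98.9% of the listed genes. ABAT followed at 77.8, POU4F1 at 27.2, PIPOX at 21.4, JARID2 at 17.8, TFAP2B at 13.0, ALK at 9.45 and NOS1 at 4.58. CNR1 was barely expressed, at 0.568 TPM. The control ranges of ASS1 (268 to 323) and FGFR4 (248 to 301) overlapped, as did those of PIPOX (17.8 to 24.4) and JARID2 (13.5 to 22.9) and those of JARID2 and TFAP2B (10.7 to 15.4). The other neighbours in this order did not overlap. These ranges span both times, and within every control library ASS1 was above FGFR4, PIPOX above JARID2 and JARID2 above TFAP2B. JARID2 read 111 CPM with DMSO and 118 with NT at 2 h but 84.1 and 79.9 at 6 h, and TFAP2B 78.3 and 81.1 at 2 h but 64.3 and 64.2 at 6 h. In the comparisons at a given time each compound was set against the controls of that time, so these shifts do not enter them.

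**Figure D1:**
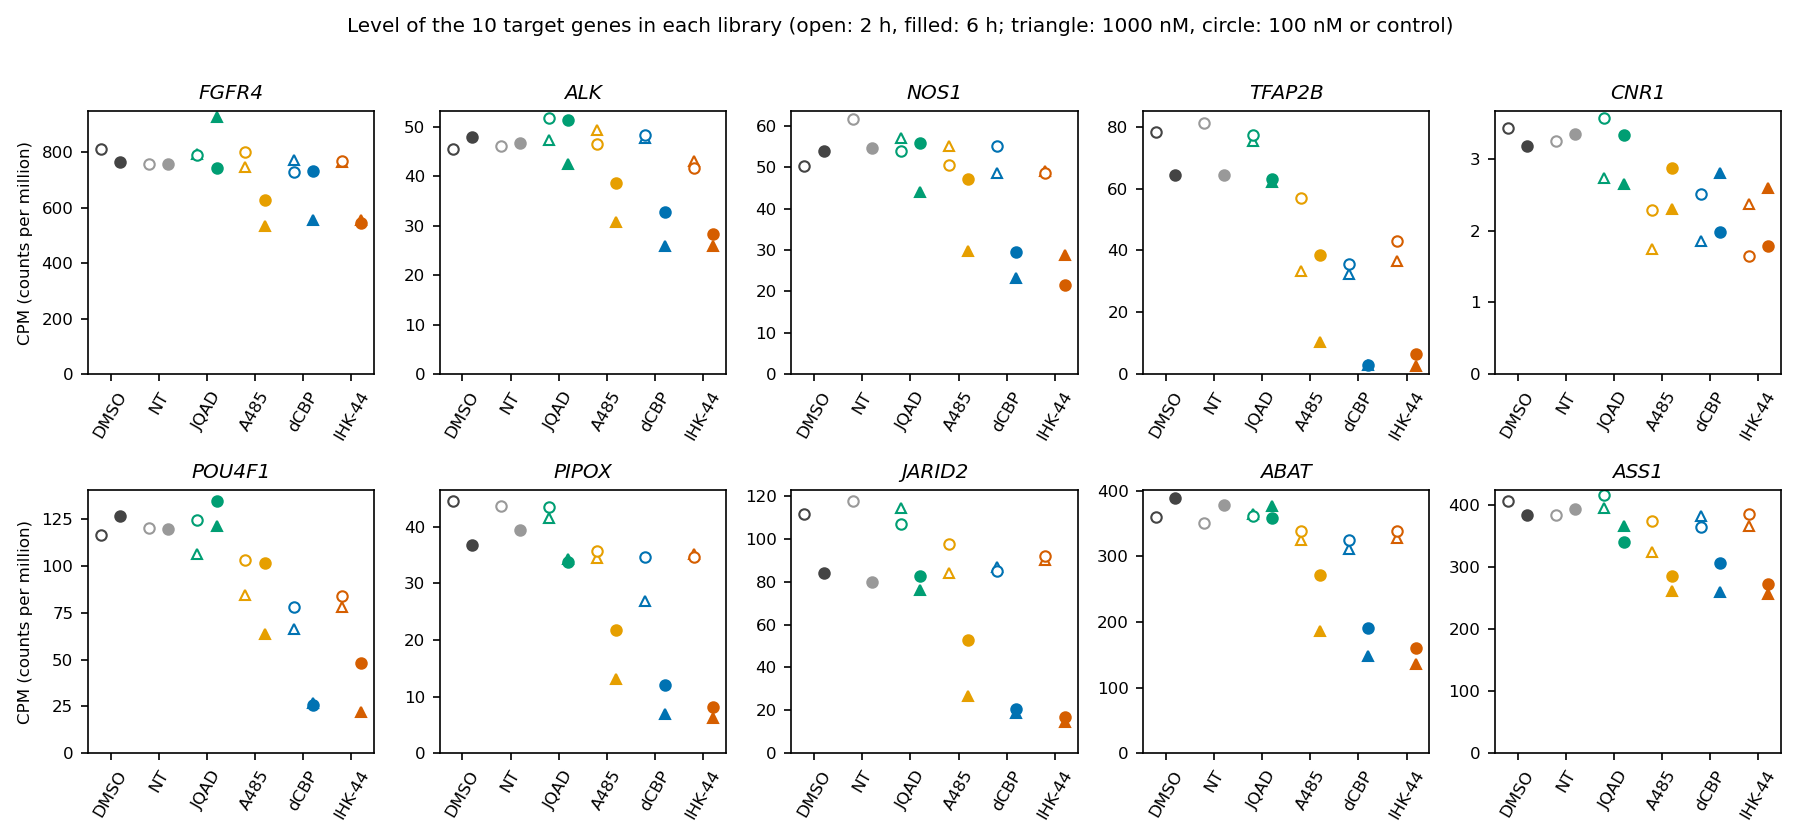
Level of each gene in each of the 20 libraries, in CPM on a linear axis from 0, with groups along the horizontal axis. Open symbols are 2 h and filled symbols 6 h, triangles are 1000 nM and circles 100 nM or a control. At 6 h the A485, dCBP and IHK-44 libraries lie below both controls for all 10 genes, and the JQAD libraries lie near them.

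At 6 h these genes were lower with dCBP, IHK-44 and A485, and by very different amounts. The 10 genes were chosen with earlier results of these data known. Their counts are therefore a description, and the shares of all genes beside them give scale only. By the quasi-likelihood test of edgeR, with p-values adjusted by Benjamini-Hochberg over 13260 genes, IHK-44 lowered 10 of the 10 genes, dCBP 9 and A485 7, where 21.4%, 22.4% and 8.7% of all tested genes were lower. JQAD lowered 0 of 10 at an adjusted p under 0.05, 0 at an unadjusted p under 0.05 and 0 with DESeq2, with 0% of all genes lower. The median fitted change over the 10 genes was -0.62 (log2) with A485, -1.26 with dCBP, -1.41 with IHK-44 and -0.06 with JQAD, beside medians of 0.02, 0.06, 0.06 and 0.00 over all tested genes. Both libraries of the compound lay below both controls for 10 of 10 genes with A485, dCBP and IHK-44, against 24.3%, 23.4% and 26.5% of the 12174 genes with a mean of at least 1 CPM, and for 4 of 10 with JQAD, against 17.5%. The A485 count fell to 4 without the 6 h DMSO library, to 2 without the 6 h NT library and to 1 without the 1000 nM library, whereas the dCBP count stayed at 8 to 9 and the IHK-44 count at 9 to 10 whichever library was left out. Scaling by library totals in place of TMM moved the median of all genes by 0.157 for dCBP and 0.169 for IHK-44. It left 8 and 9 genes lower, while over all genes the split of lower against higher calls went from 2964 and 3074 to 2162 and 4702 for dCBP, from 2842 and 2742 to 2166 and 4698 for IHK-44 and from 1154 and 1039 to 967 and 1651 for A485.

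**Figure D2:**
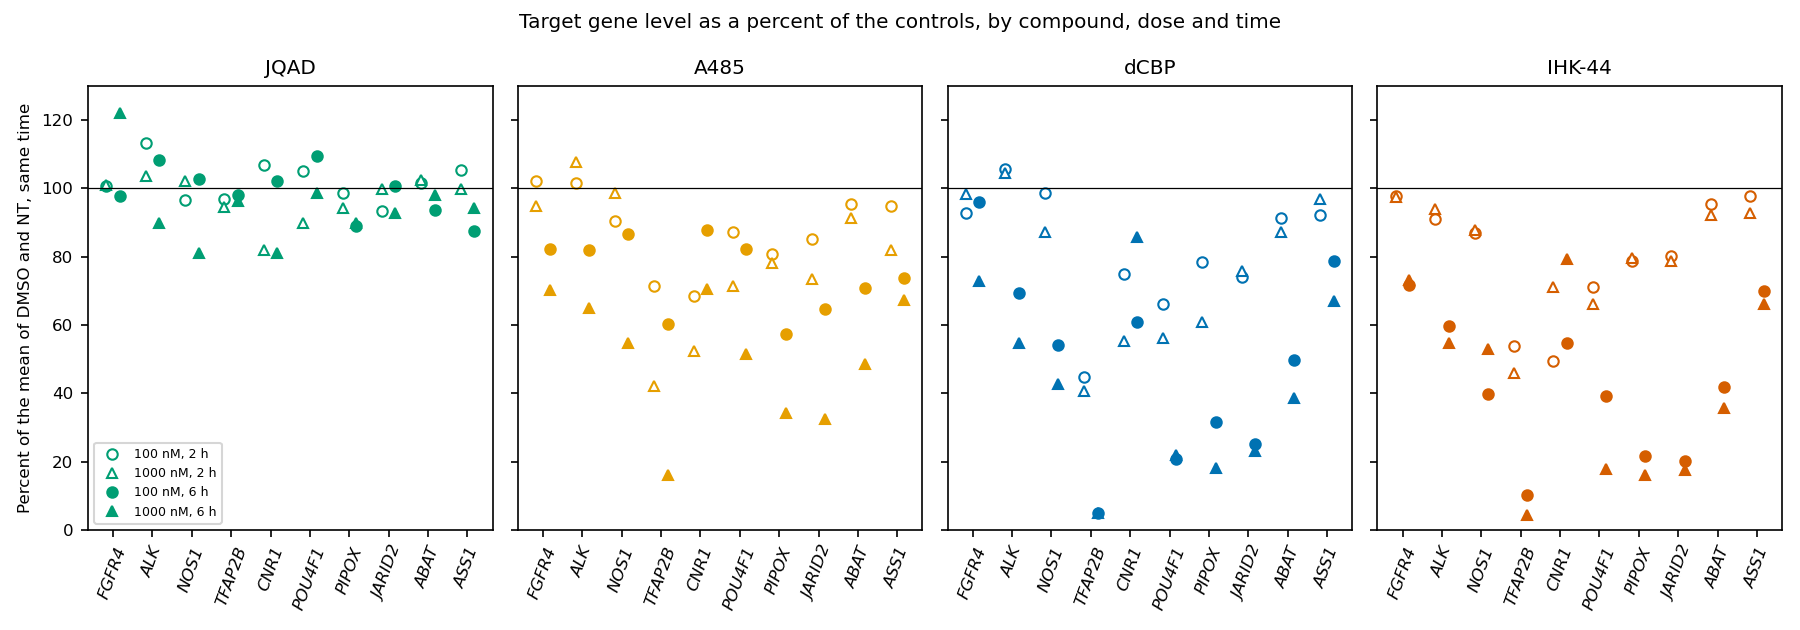
Level of each gene as a percent of the mean of DMSO and NT at the same time, with a panel for each compound and a line at 100. The lowest points are TFAP2B at 6 h, at 4.8% with both doses of dCBP and at 4.3% and 10.3% with IHK-44, and the highest is FGFR4 at 122% with 1000 nM JQAD at 6 h.

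TFAP2B, an AP-2 transcription factor of neural crest development that is also a histological marker of fusion-positive tumours, had the largest fall. At 6 h it read 64.3 CPM with DMSO and 64.2 with NT, but 3.10 and 3.12 with 1000 and 100 nM dCBP, 2.77 and 6.61 with IHK-44 and 10.4 and 38.7 with A485. The dCBP values rest on 42 and 44 counts, with exact Poisson 95% intervals of 2.23 to 4.19 and 2.26 to 4.18 CPM that cover counting error only. The 2 JQAD libraries, at 62.0 and 63.0, were just under the controls. The fitted change was -4.52 (log2, SE 0.508, adjusted p = 8.77e-06) with dCBP and -3.94 (SE 0.470, adjusted p = 1.081e-05) with IHK-44, which placed TFAP2B at ranks 33 and 47 from the lowest of 13260 genes. With A485 it was -1.46 (SE 0.399, adjusted p = 0.0221). TFAP2B was low already at 2 h, at 32.4 and 35.6 CPM with dCBP, 36.5 and 43.0 with IHK-44 and 33.5 and 57.0 with A485, all below the controls at 78.3 and 81.1.

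POU4F1, a POU-homeodomain factor of sensory neurons, came next in fitted change with dCBP. At 6 h it read 127 and 120 CPM in the controls, 26.9 and 25.8 with 1000 and 100 nM dCBP, 21.9 and 48.2 with IHK-44, 63.7 and 101 with A485 and 122 and 135 with JQAD. The dCBP doses were nearly equal, whereas the IHK-44 and A485 doses stood apart. The fitted change was -2.38 (SE 0.278, adjusted p = 1.072e-05) with dCBP and -1.98 (SE 0.270, adjusted p = 3.228e-05) with IHK-44. With A485 it was -0.66 and missed the threshold (adjusted p = 0.0871). A long noncoding RNA, OBI1-AS1, overlaps POU4F1, and JARID2-AS1 overlaps JARID2. Whether counting used the strand is not given in the sources used here, so reads of these partners could be included.

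JARID2, an accessory subunit of the Polycomb repressive complex 2 that is known to restrain muscle differentiation in this tumour, read 84.1 and 79.9 CPM in the 6 h controls. It was 18.9 and 20.7 with 1000 and 100 nM dCBP, 14.4 and 16.7 with IHK-44, 26.7 and 53.0 with A485 and 76.1 and 82.6 with JQAD. The 6 libraries of A485, dCBP and IHK-44 were below both controls, and those of JQAD overlapped them. The fitted change was -2.57 (SE 0.227, adjusted p = 4.07e-06) with IHK-44, -2.20 (SE 0.225, adjusted p = 7.686e-06) with dCBP and -1.12 (SE 0.212, adjusted p = 0.00488) with A485.

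Among the metabolic enzymes, PIPOX, the peroxisomal oxidase of sarcosine and pipecolic acid, fell most. Its 6 h values were 36.7 and 39.3 CPM in the controls, 6.86 and 12.04 with 1000 and 100 nM dCBP, 6.135 and 8.21 with IHK-44, 13.1 and 21.8 with A485 and 34.2 and 33.8 with JQAD. The order of the compounds was that seen for JARID2, and JQAD lay just under the controls. Its fitted change was -2.57 (SE 0.249, adjusted p = 4.14e-06) with IHK-44, -2.16 (SE 0.245, adjusted p = 9.252e-06) with dCBP and -1.21 (SE 0.230, adjusted p = 0.00492) with A485. ABAT, the transaminase that breaks down GABA, read 389 and 379 CPM in the 6 h controls, 148 and 191 with dCBP, 137 and 160 with IHK-44, 186 and 271 with A485 and 376 and 359 with JQAD. Its fitted change was -1.54 with IHK-44, -1.33 with dCBP and -0.82 with A485, and all passed the test. ASS1, which joins citrulline and aspartate in arginine synthesis, had a smaller change, to between 257 and 307 CPM with these 3 compounds from 384 and 394 in the controls. For ASS1 it was -0.59 with A485, -0.61 with dCBP and -0.72 with IHK-44, a narrower range than for PIPOX, and again all passed.

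The receptors had smaller fitted changes than TFAP2B and POU4F1 with each of these compounds. FGFR4, the fibroblast growth factor receptor that is abundant in this tumour, read 763 and 758 CPM in the 6 h controls, 555 and 731 with 1000 and 100 nM dCBP, 556 and 544 with IHK-44, 533 and 626 with A485 and 928 and 743 with JQAD. The 100 nM dCBP library was close to the controls, and the 1000 nM JQAD library was the highest of the 20. Its fitted change was -0.40 (SE 0.135, adjusted p = 0.0252) with dCBP, -0.64 (SE 0.136, adjusted p = 0.00141) with IHK-44 and -0.47 (SE 0.135, adjusted p = 0.0263) with A485. At rank 2917 of 13260 with dCBP, FGFR4 stood well inside the body of genes, and with scaling by library totals its dCBP change lost the call (-0.24, adjusted p = 0.0906). ALK, a receptor tyrosine kinase of neural tissue, read 48.0 and 46.7 CPM in the 6 h controls and 25.95 and 32.8 with dCBP, 25.9 and 28.3 with IHK-44 and 30.8 and 38.8 with A485. Its fitted changes were -0.84, -0.97 and -0.53, and all passed the test, but with limma on the deposited TPM the A485 value was 0.0353. CNR1, the cannabinoid receptor of neurons, rests on 25 to 57 counts in each library, so that the counting interval runs from 1.07 to 2.43 CPM in the lowest library and from 2.65 to 4.69 CPM in the highest. Its fitted change at 6 h was -0.75 with IHK-44 (adjusted p = 0.0457), -0.61 with dCBP (adjusted p = 0.0973) and -0.42 with A485, and the IHK-44 call was lost with library totals (-0.58, adjusted p = 0.108).

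NOS1, the neuronal nitric oxide synthase, read 54.0 and 54.5 CPM in the 6 h controls, 23.2 and 29.5 with dCBP, 28.7 and 21.6 with IHK-44, 29.8 and 47.1 with A485 and 44.05 and 55.8 with JQAD. With IHK-44 the lower value was that of the lower dose. Its fitted change was -1.20 (adjusted p = 0.000195) with dCBP and -1.28 (adjusted p = 0.000105) with IHK-44, and that of -0.58 with A485 missed the threshold (adjusted p = 0.0532).

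**Figure D3:**
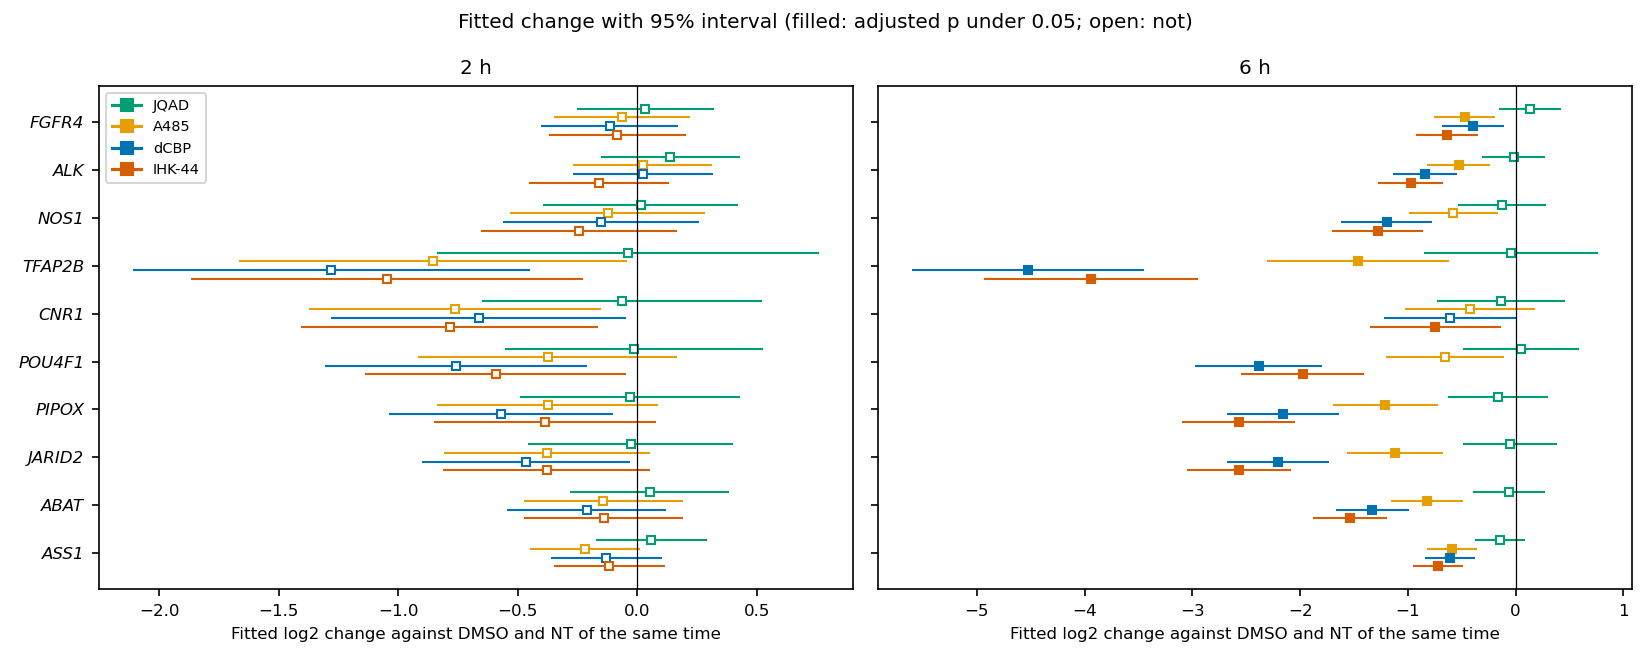
Fitted log2 change of each gene against DMSO and NT of the same time, with 95% confidence intervals, at 2 h and at 6 h (the axes of the panels differ). Filled squares passed an adjusted p of 0.05 and open squares did not; at 2 h all are open, and at 6 h TFAP2B lies at -4.52 with dCBP and -3.94 with IHK-44.

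At 2 h, TFAP2B, CNR1, POU4F1, PIPOX, JARID2 and ABAT read below both controls in both libraries of A485, dCBP and IHK-44, but 0 of 10 genes passed the adjusted threshold with any compound in edgeR or DESeq2. The genes below both controls in both libraries numbered 7 with A485, 7 with dCBP, 8 with IHK-44 and 2 with JQAD, where 20.2%, 21.2%, 21.0% and 20.7% of all genes did so. In edgeR's test 0.0452%, 2.67%, 2.45% and 0% of all genes were lower with A485, dCBP, IHK-44 and JQAD. At an unadjusted p under 0.05 the counts of the 10 genes were 2, 5, 3 and 0. Over all 13260 genes they were 1564, 2989, 2392 and 138, in either direction. TFAP2B had a change of -1.28 with dCBP (adjusted p = 0.0656), -1.05 with IHK-44 (adjusted p = 0.146) and -0.85 with A485 (adjusted p = 0.397). CNR1, at its few counts, had changes of -0.76 with A485, -0.66 with dCBP and -0.79 with IHK-44, with unadjusted p of 0.0173, 0.0368 and 0.0163 in edgeR and adjusted p of 0.286, 0.189 and 0.151. The changes of ABAT lay between -0.21 and 0.05 over the 4 compounds, and those of FGFR4 between -0.11 and 0.03. The count of 0 with dCBP became 4 without either 6 h library of A485, 1 without either 6 h library of IHK-44 and 2 with no filter on low counts, and the count of 0 with IHK-44 became 2 without either 6 h library of A485 and 1 with no filter.

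The difference between the times was tested directly, as the effect at 6 h minus that at 2 h. It was negative and past the threshold for 7 of 10 genes with dCBP (ALK, NOS1, TFAP2B, POU4F1, PIPOX, JARID2 and ABAT) and for the same genes and ASS1 with IHK-44, against 6.4% and 7.76% of all genes. TFAP2B changed by -3.25 (SE 0.646, adjusted p = 0.00824) more at 6 h with dCBP and JARID2 by -2.19 (SE 0.303, adjusted p = 0.00151) more with IHK-44. With A485 it was 0 of 10 in edgeR and 0 in DESeq2, with 0.00754% of all genes called in edgeR. At an unadjusted p under 0.05 it was 6 with A485, against 1273 of all 13260 genes in either direction. With JQAD it was 0 of 10 by both tools and 0 unadjusted, with 0% of all genes called. These counts rest on few libraries. Leaving out any single control library gave 4 genes with dCBP and 4 with IHK-44, leaving out 100 nM dCBP at 2 h gave 3 for dCBP, leaving out 1000 nM IHK-44 at 6 h or 100 nM IHK-44 at 2 h gave 4 for IHK-44, and leaving out 100 nM A485 at 6 h gave 6 for A485. On the deposited TPM with limma, an alternative chosen after seeing the data, 8 genes were already lower at 2 h with dCBP and 8 with IHK-44, and 0 and 3 had a larger fall at 6 h. The share of all genes lower on this scale was not computed, so these counts have no background beside them. The share of TPM held by coding genes was lower with these compounds than in the controls at both times, as given above. With 1000 nM dCBP at 2 h, FGFR4 stood at 192 TPM, against 301 with DMSO and 281 with NT. In CPM the same library was at 98.4% of the control mean.

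By size alone, 5 genes were at least 2-fold below DMSO at 6 h, on the log2(CPM + 1) scale, in both dCBP libraries and in both IHK-44 libraries. In each case they were TFAP2B, POU4F1, PIPOX, JARID2 and ABAT, and 5.29% and 5.36% of the 12174 genes did so. At 2 h TFAP2B alone did so, with dCBP (1.06% of genes). The counts were 0 with IHK-44 at 2 h (1.24%), with A485 at 2 h (0.0739%) and 6 h (0.255%), with JQAD at each time (0.0164%) and for NT, which stood at 0.0164% of genes at 2 h and 0.0411% at 6 h. A bound of 1.5-fold gave 3 genes with A485 at 6 h, and the share of all genes at this bound was not computed.

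The doses were compared within each compound with the time as a block, over 12895 genes. For TFAP2B with A485 the level at 1000 nM minus that at 100 nM was -1.36 (log2, SE 0.254, adjusted p = 0.0363 in edgeR). After adjustment 0.83% of all genes were lower. At an unadjusted p under 0.05 there were 5 of the 10 genes, against 1380 of all 12895 in either direction. All 10 fitted dose differences were below 0 with A485, and the next largest were JARID2 at -0.65 and POU4F1 at -0.55. With dCBP the count called was 0 of 10, with 0% of all genes lower, and 1 unadjusted, against 142 of all genes. TFAP2B differed by -0.12 (95% interval -0.76 to 0.53). With IHK-44 it was 0 of 10, with 0.109% of genes lower, and 2 unadjusted, against 305 of all genes. POU4F1 differed by -0.63 (95% interval -1.08 to -0.17). With JQAD it was 0 of 10, with 0 unadjusted and 0% of genes, and DESeq2 also gave 0 for dCBP, IHK-44 and JQAD. The A485 call had 4 residual degrees of freedom behind it. It became 0 with library totals, 0 without any single library of JQAD or of A485 at 6 h, and 2 with DESeq2 or without a library of A485 at 2 h.

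Compounds were then compared with one another over their 4 libraries at matched doses and times, in a fit with a term for time. That term is shared by all groups. Differences between a compound's doses, and between its 2 h and 6 h effects, therefore count as spread. Equal effects of the 4 compounds were rejected for 8 of the 10 genes (all but NOS1, adjusted p = 0.0564, and CNR1, adjusted p = 0.0518), against 29.6% of all genes. This count became 5 without 1000 nM IHK-44 at 6 h and 2 without 100 nM IHK-44 at 6 h or without either JQAD library at 6 h. Of the 6 pairs, dCBP against JQAD and IHK-44 against JQAD differed for 10 of 10 genes, each lower than with JQAD, where 16.4% and 16.1% of all genes were lower. The dCBP differences ran from -2.50 (SE 0.614, adjusted p = 0.00671, 0.00453 over the 6 pairs) for TFAP2B to -0.33 (SE 0.109, adjusted p = 0.0281) for ASS1, and the IHK-44 differences from -2.24 for TFAP2B to -0.37 for ASS1. A485 and JQAD differed for 0 of 10 genes after adjustment over all genes, with 4.91% of all genes called. Before adjustment they differed for 4, against 3427 of all 13260 genes. The nearest to the threshold was ASS1 at -0.36 (adjusted p = 0.0614). Adjusted over the 6 pairs alone, edgeR's p was 0.0117 for ASS1, 0.0318 for FGFR4 and 0.0454 for CNR1, each lower with A485 than with JQAD.

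Between dCBP and IHK-44 the test found 0 of 10 genes, 0 unadjusted and 0% of all genes. The intervals were narrow for FGFR4 (difference 0.10, 95% interval -0.18 to 0.37) and ASS1 (0.05, -0.18 to 0.28) and wide for TFAP2B (-0.27, -1.51 to 0.98) and POU4F1 (-0.25, -0.94 to 0.44). A485 differed from dCBP for 0 of 10 genes (0.724% of all genes) and from IHK-44 for 0 of 10 (0.882%). At an unadjusted p under 0.05 the counts were 2 and 1, against 2841 and 2302 of all 13260 genes. POU4F1 was 0.97 higher (log2) with A485 than with dCBP (95% interval 0.28 to 1.67), and edgeR's adjusted p was 0.0176 over the 6 pairs but 0.132 over all genes. TFAP2B was 1.31 higher (95% interval 0.04 to 2.57, adjusted p = 0.222).

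Averaged over both doses and times and set against DMSO alone, in the same fit, dCBP lowered 6 of the 10 genes (TFAP2B, POU4F1, PIPOX, JARID2, ABAT and ASS1), where 11.8% of all genes were lower. IHK-44 lowered 8 (all but FGFR4 and NOS1), where 9.21% were. A485 lowered 0, with 0 in DESeq2 and 0.158% of all genes, and 2 unadjusted, against 2534 of all 13260 genes in either direction. JQAD lowered 0, with 0 unadjusted, 0 in DESeq2 and 0% of genes. A difference between a compound's 2 h and 6 h effects counted as spread here too. Without the 6 h DMSO library the dCBP and IHK-44 counts were 0 and 0. Without either 6 h dCBP library the dCBP count was 2, and without either 6 h IHK-44 library the IHK-44 count was 0. With DMSO and NT pooled as the control, A485 lowered 1 gene (ASS1), dCBP 9 and IHK-44 10, and with NT alone the counts were 0, 5 and 7. The share of all genes lower was not computed for these other controls. ABAT lost its call against NT with both dCBP (adjusted p = 0.0551) and IHK-44 (adjusted p = 0.0520), as did ASS1 with dCBP and ALK with IHK-44, and NOS1 was gained with both.

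Other genes that have been linked to the fusion fell alongside. This list, too, was chosen with earlier results of these data known, so its counts are a description and not independent support. Of 19 listed, 18 were tested, and at 6 h 15 fell and 2 rose with dCBP, 15 fell and 1 rose with IHK-44, 10 fell and 0 rose with A485 and 0 changed with JQAD. Over all genes at 6 h, 22.4% were lower and 23.2% higher with dCBP, 21.4% and 20.7% with IHK-44 and 8.7% and 7.84% with A485. The median of the list was -0.72 with A485, -1.72 with dCBP and -1.38 with IHK-44. At 2 h, 0 fell with A485 or JQAD, 1 with dCBP and 2 with IHK-44, where 0.0452%, 0%, 2.67% and 2.45% of all genes were lower. MYCN, an oncogene of the MYC family, had the lowest fitted change, -5.20 with IHK-44, -4.75 with dCBP and -1.81 with A485. The next were FOXO1 at -3.04 with dCBP, PDGFRA, a growth factor receptor, at -2.94 with IHK-44 and MYOG, a muscle differentiation factor, at -1.58 with A485. CDH3, a cadherin, rose by 2.50 with dCBP and 2.61 with IHK-44 from 0.180 to 0.257 CPM in the controls. It reached at most 1.86 CPM in any library, so these folds rest on few counts. KDM4B, a histone demethylase, rose by 0.31 with dCBP. PAX3, the other partner of the fusion, changed by -1.76, -1.20 and -0.67 with dCBP, IHK-44 and A485, past the threshold with each. Reads on PAX3 and FOXO1 come from the fusion and from the normal alleles, which gene counts cannot tell apart.

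Relatives and pathway partners of the 10 genes were called in about the shares found over all genes. Of 42 listed, 34 were tested, and 9 fell and 9 rose at 6 h with dCBP, 9 fell and 6 rose with IHK-44 and 3 fell and 3 rose with A485, with medians of -0.04, -0.02 and 0.01. The shares of all genes in each direction are those given beside the fusion-linked list, and the single genes that follow are a description. Within the FGF receptor family, FGFR2 fell, by fitted changes of -2.59, -2.93 and -1.49 with dCBP, IHK-44 and A485 that were each below those of FGFR4, whereas FGFR3 rose by 1.52 with dCBP. FRS3, an adaptor of these receptors, rose by 1.27 and 1.07 with dCBP and IHK-44. FGFR1 changed by -0.35 with IHK-44 and by -0.33 with A485, and FGFRL1 by 0.28 with dCBP. In the AP-2 family TFAP2A fell as TFAP2B did, with changes of -2.58 and -2.29 at 6 h and already of -1.40 and -1.14 at 2 h for dCBP and IHK-44, and TFAP2E rose by 0.98 with dCBP and 1.18 with A485. GUCY1B1, a subunit of the guanylate cyclase that senses nitric oxide, was called lower with dCBP and IHK-44, and GUCY1A1 with dCBP. Both were low, at 1.29 to 2.56 and 1.19 to 1.56 CPM in the controls and down to 0 and 0.283 CPM in the lowest library, so the fitted folds rest on few or no counts and are not given.

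Among the partners of the enzymes, ARG2, which splits arginine, rose by 2.21, 2.60 and 1.88 with dCBP, IHK-44 and A485, from 0.647 to 1.49 CPM in the controls, while ASS1 fell, and SLC7A1, an arginine transporter, fell (-0.33 and -0.44 with dCBP and IHK-44). SARDH, the mitochondrial sarcosine dehydrogenase, fell (-0.89, -0.72 and -0.66 in the same order), and DMGDH, which forms sarcosine, was called higher with dCBP and IHK-44 from 0 to 0.240 CPM in the controls, with 1.18 CPM in its highest library. ALDH5A1, which acts after ABAT in GABA breakdown, rose by 0.45 with IHK-44, and GAD1, which makes GABA, by 0.58 with dCBP and 0.57 with A485. In the Polycomb complex of JARID2, AEBP2 fell (-1.08 and -0.77 with dCBP and IHK-44), as did MTF2 with dCBP (-0.32), and the core members EZH2, EED and SUZ12 did not pass the test. MGLL, which breaks down the endocannabinoid 2-AG, fell (-1.02 and -1.15), and FAAH, which breaks down anandamide, rose by 1.81 and 1.28 from 0.300 to 0.625 CPM in the controls. POU4F3 was called higher with dCBP and IHK-44 while POU4F1 fell, but stood at only 0.0600 to 0.397 CPM in the controls and at most 1.96 CPM in any library, and LTK, the relative of ALK, fell with IHK-44 (-0.51).

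**Figure D4:**
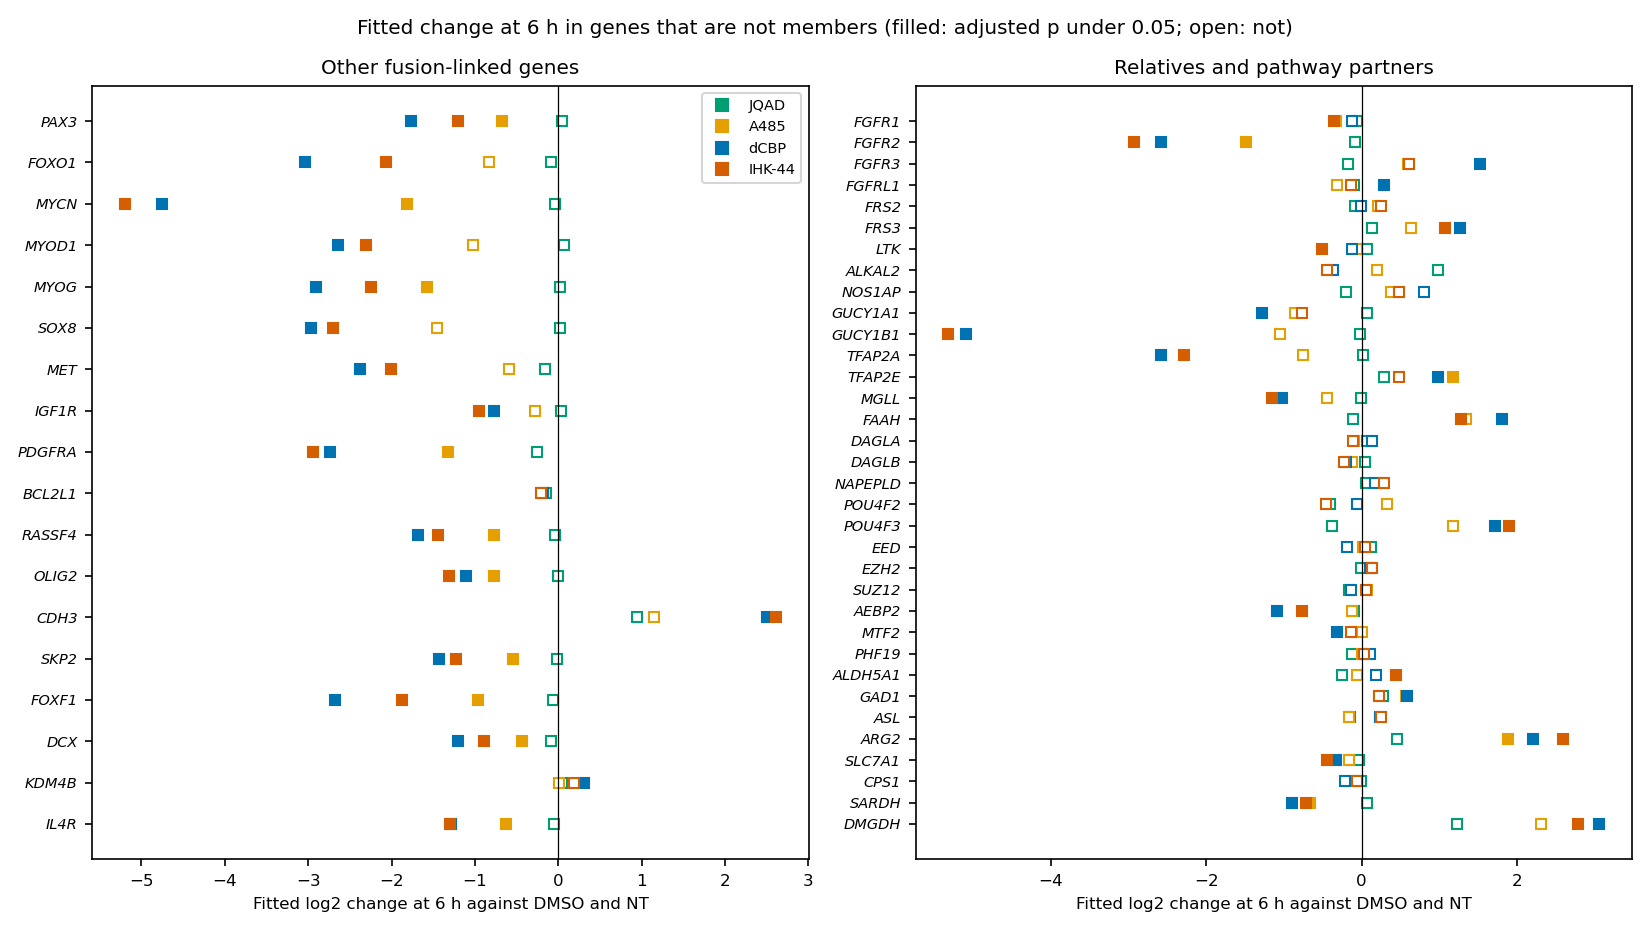
Fitted log2 change at 6 h against DMSO and NT for the tested fusion-linked genes outside the 10 (left) and for relatives and pathway partners of the 10 (right), coloured by compound, with filled squares past an adjusted p of 0.05. Most fusion-linked genes lie left of 0 with dCBP and IHK-44, down to MYCN at -5.20, while the relatives spread to both sides.

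Across the 20 libraries several of the 10 genes had closely matching profiles of log2(CPM + 1). Pearson's r was 0.986 for PIPOX with ABAT and 0.983 for PIPOX with JARID2, and 0.191 to 0.444 for CNR1 with the others. The libraries share compounds, times and controls, so these values describe the profiles and were not tested. Among the 12173 other genes of at least 1 CPM, the gene most like FGFR4 was DES, the muscle intermediate filament desmin (r = 0.980), that most like TFAP2B was RHOBTB1 (0.994), and those most like POU4F1, PIPOX and JARID2 were ZEB2 (0.993), PSEN2 (0.988) and GLI2 (0.991). ABAT was most like NECTIN1 (0.996), ASS1 like CSRP1 (0.9751), NOS1 like FRMD3 (0.976) and ALK like NAV2 (0.972), and CNR1 reached only 0.875, with SLC19A2. DES, which marks the muscle character of these cells, itself fell at 6 h, with changes of -0.53 for dCBP, -0.75 for IHK-44 and -0.55 for A485.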

How the data were processed

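RNA of the 20 libraries was read as 1 file each with 18980 coding genes; the 10 members and all gene lists were chosen with earlier results of these data known. The submitters' processing notes name STAR 2.5.3a, RSEM 1.3.3 and hg38 without their roles, and whether counting used the strand is not given in the sources used here. The expected counts (estimated reads per gene) are as deposited by the authors, with 88.2% of values whole, and were rounded for the tests. The CPM values deposited by the authors equal the expected counts divided by each library's sum over coding genes, times a constant. The TPM values deposited by the authors are scaled over more transcripts than the coding ones. Library sizes are the sums over coding genes.

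Groups follow the labels. Counts were tested with edgeR 4.0.16 (R 4.3.3), the quasi-likelihood test with TMM scaling, filterByExpr and Benjamini-Hochberg adjustment over all tested genes, threshold 0.05. The fit by compound had 6 levels and time, with 13 residual degrees of freedom. The fit by compound and time had 10 groups and 10 degrees of freedom, and the dose fit 16 treated libraries and 4. All were run on simulated counts in which the libraries of a group varied as replicates around a shared level. That cannot test the use of doses and times in place of replicates. Ratios used log2(CPM + 1) for genes with a mean of at least 1 CPM, which understates changes of low genes. Poisson intervals are exact at 95%. Alternatives were other scalings, no filter, DESeq2 1.42.0, limma 3.58.1 with pseudocounts of 1 and 0.1, other controls, a 1.5-fold bound, deposited TPM and leaving out each library; for the dose fit, the size factors of the DESeq2 type and the left-out libraries were chosen after seeing the data. Other values were computed in Python 3.11.15, with scipy 1.17.1 for the intervals. All 10 members are named. Of the fusion-linked list, the 2 largest falls and rises per compound at 6 h among called genes are named. PAX3 and DES were named besides, chosen after their values were seen. Of the relatives, those called at a given time are named, with EZH2, EED and SUZ12 besides. This leaves out CPS1, which was lower with dCBP against DMSO over both times (-0.23, adjusted p = 0.0292 in edgeR). For likeness, the gene with the highest r is named.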

Additional observations from a re-analysis of the deposited data

Results flagged for a closer look

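The effects of the 4 compounds differed in edgeR's test of equal effects, with Benjamini-Hochberg adjustment over all genes, for 8 of the 10 genes. The adjusted p was 0.00898 for POU4F1, 0.0146 for TFAP2B, 0.0288 for JARID2, 0.0295 for PIPOX, 0.0326 for ASS1, 0.0340 for ALK, 0.0364 for ABAT and 0.048 for FGFR4.

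The effect of dCBP was larger at 6 h than at 2 h by a tested difference of -3.25 (log2) for TFAP2B, -1.74 for JARID2, -1.63 for POU4F1, -1.59 for PIPOX, -1.12 for ABAT, -1.04 for NOS1 and -0.87 for ALK. That of IHK-44 was larger at 6 h by -2.89 for TFAP2B, -2.19 for JARID2, -2.19 for PIPOX, -1.40 for ABAT, -1.38 for POU4F1, -1.04 for NOS1, -0.81 for ALK and -0.61 for ASS1.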

How the results depend on the processing

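Counts of the 10 genes called lower are given here with the lowest and highest value over the libraries left out. For dCBP against DMSO the count of 6 ranged from 0 to 8, for IHK-44 against DMSO 8 ranged from 0 to 8, and for unequal compounds 8 ranged from 2 to 10. At 2 h the counts of 0 ranged from 0 to 4 with dCBP and 0 to 2 with IHK-44, and at 6 h 7 ranged from 1 to 9 with A485. For the larger fall at 6 h, 0 ranged from 0 to 6 with A485, 7 from 3 to 8 with dCBP and 8 from 4 to 9 with IHK-44. For dose, 1 ranged from 0 to 2 with A485 and 0 from 0 to 1 with IHK-44.

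Pooling DMSO and NT gave 1 for A485 against DMSO. No filter on low counts gave 2 for dCBP and 1 for IHK-44 at 2 h. The limma test on log2(TPM + 1), chosen after seeing the data, gave 3 for A485 at 6 h, 8 for dCBP and 8 for IHK-44 at 2 h, and in the time difference 0 for dCBP and 3 for IHK-44. For dose with A485, library totals gave 0 and DESeq2 2. For falls of 2-fold at both doses, deposited TPM and the 1.5-fold bound each gave 1 for IHK-44 at 2 h, and the 1.5-fold bound 3 for A485 at 6 h. Smaller moves from the main counts are not listed here. On the deposited TPM at 6 h, ALK and NOS1 also passed 2-fold with dCBP and IHK-44. With 1000 and 100 nM dCBP, ALK read 3.81 and 3.84 TPM against 9.07 with DMSO. NOS1 read 1.53 and 1.46 against 4.21. The share of all genes was not computed for these alternatives, and the causes were not tested.

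Signs of single genes were followed for A485, dCBP and IHK-44 over all libraries and at 6 h, and for the dose of A485, and 7 reversals were found, all in ALK or NOS1 with A485. Over left-out libraries, ALK, A485 against DMSO ranged from -0.53 to 0.0073 and NOS1, A485 against DMSO from -0.64 to 0.0906, the positive values without DMSO at 6 h. In ALK, A485 1000 nM against 100 nM ranged from -0.43 to 0.0385 (0.0382 and 0.0385 without the 1000 or 100 nM library at 6 h). In NOS1, A485 1000 nM against 100 nM ranged from -0.76 to 0.0799 (0.0797 and 0.0799 likewise). With limma on TPM, ALK, A485 at 6 h against DMSO and NT, was 0.0353, beside -0.53 (adjusted p = 0.0191) in edgeR. Over single genes in these comparisons, leaving out a library kept sign and side of the threshold in 1258 values, lost the call in 83, gained it in 13 and reversed the sign in 6. Each condition has 1 library, so no value here has a replicate of its own. Precision of CNR1, at 25 to 57 counts, is limited by depth.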
